A study of Homo sapiens with 3 samples.

Results

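The genes of the aminoacyl-tRNA synthetases were examined for chromatin peaks of Strawberry Notch 1 (SBNO1), of TATA-box binding protein associated factor 4 (TAF4) and of control immunoglobulin (IgG) in HuCCT1 cells, a human cell line of bile duct cancer (HUCCT1 in the labels). The 35 genes, of 19689 protein-coding genes, were given as a list of symbols. The list uses no peak values, but it was drawn up with earlier results of these data known. They fell into 16 cytosolic enzymes, 16 mitochondrial enzymes, whose symbols end in 2, and GARS1, KARS1 and QARS1, which the rule set apart. The study used chromatin immunoprecipitation sequencing (ChIP-seq) to follow up the interaction of SBNO1 with TAF4, which belongs to the TFIID complex, and sequenced 1 library for each of the 3 antibodies after pooling the precipitates of several cultures. The labels name no treatment. There are therefore no replicates, the spread between cultures is unknown and no difference was tested. The peak lists hold no expression values, so the identity of the cells could not be checked by markers. The lists held 16147 peaks for SBNO1, 12763 for TAF4 and 1598 for IgG, and the numbers of reads behind them are unknown.

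Aminoacyl-tRNA synthetases attach each amino acid to its tRNA and thereby supply the ribosome. Human cells use one set of enzymes in the cytosol and another set, also encoded in the nucleus, for the few proteins made in mitochondria. Glycyl- and lysyl-tRNA synthetase of both compartments come from the single genes GARS1 and KARS1, whereas QARS1 serves the cytosol and mitochondria obtain glutaminyl-tRNA by amidation of a glutamate-charged tRNA. When amino acids run short, the kinase GCN2 and the transcription factor ATF4 raise many genes of amino acid supply, among them several cytosolic synthetases, through a composite C/EBP-ATF response element. TFIID recognises core promoters and loads RNA polymerase II.

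A gene was taken to have a promoter peak when the edge of a peak lay within 1 kb of any transcription start site (TSS) of its protein-coding transcripts, and all genes within that distance were credited with the peak. TAF4 peaks were present at 31 of the 35 synthetase genes (88.6%, 95% Clopper-Pearson interval 73.3% to 96.8%), while 31.9% of all protein-coding genes had one. SBNO1 peaks were present at 22 genes (62.9%, interval 44.9% to 78.5%), compared with 25.7% of all genes. In the IgG library, the background of the procedure, only LARS1 had a promoter peak (2.86%, interval 0.0723% to 14.9%), against 1.41% of all genes. These intervals cover counting error only, since genes are not replicates of a condition. All 22 genes with SBNO1 also had TAF4, a class that held 22.6% of all genes. TAF4 without SBNO1 was found at 9 genes, compared with 9.29% of all genes. SBNO1 without TAF4 was found at none of the 35, compared with 3.08% of all genes, and 0 of 35 allows a share of up to 10.0% (Clopper-Pearson). Neither protein had a peak at 4 genes (11.4%, interval 3.20% to 26.7%), compared with 65.0% of all genes.

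The share of marked genes was similar in both compartments. Among the 16 cytosolic enzymes, 9 had SBNO1 (56.2%, interval 29.9% to 80.2%) and 14 had TAF4 (87.5%, interval 61.7% to 98.4%). Of the 16 mitochondrial enzymes, 10 had SBNO1 (62.5%, interval 35.4% to 84.8%) and 14 had TAF4 (87.5%). The intervals of SBNO1 overlapped widely, and a difference between the compartments could not be resolved with 16 genes each. GARS1, KARS1 and QARS1 all had both proteins. The lowest bounds of the TAF4 intervals of both compartments lay above the share of all genes, and so did those of SBNO1.

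**Figure D1:**
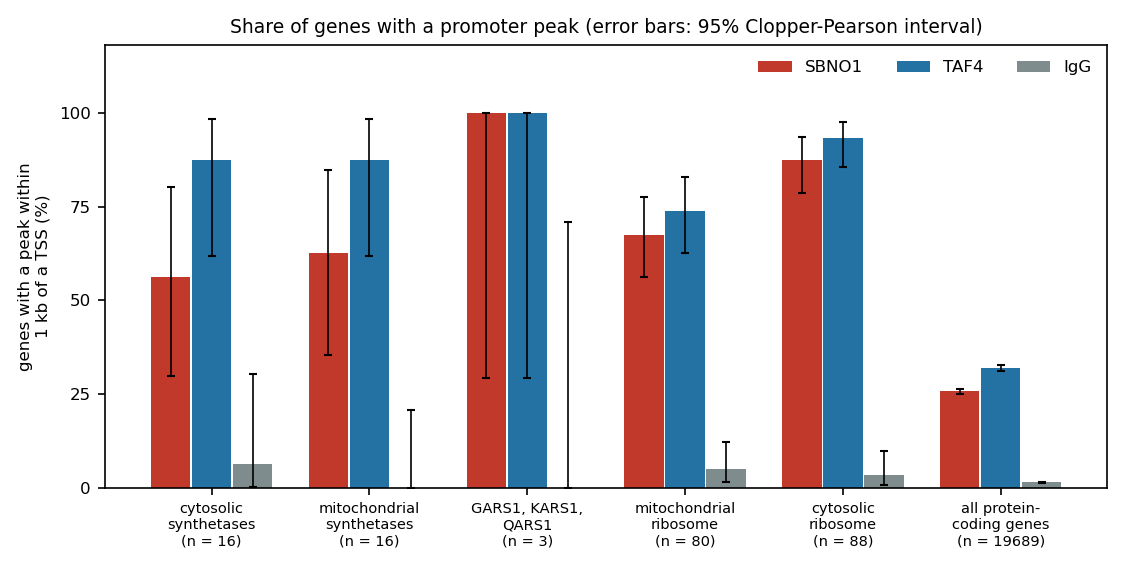
Share of genes (%) with a peak of SBNO1, TAF4 or IgG within 1 kb of a TSS, for the synthetase groups, both ribosomes and all protein-coding genes; error bars are 95% Clopper-Pearson intervals. TAF4 reaches 87.5% in cytosolic and mitochondrial synthetases, compared with 31.9% of all genes.

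Both ribosomes were compared in the same way, as further gene families of translation. Of 80 genes of the mitochondrial ribosome, 54 had SBNO1 (67.5%, interval 56.1% to 77.6%) and 59 had TAF4 (73.8%, interval 62.7% to 83.0%). Of 88 genes of the cytosolic ribosome and its paralogs, 77 had SBNO1 (87.5%, interval 78.7% to 93.6%) and 82 had TAF4 (93.2%, interval 85.7% to 97.5%). The SBNO1 share of synthetase genes was near that of the mitochondrial ribosome, and its interval ended just below the lower bound of the cytosolic ribosome. TAF4 without SBNO1 was listed at 25.7% of synthetase genes (interval 12.5% to 43.3%), at 12.5% of mitochondrial ribosome genes (interval 6.16% to 21.8%) and at 5.68% of cytosolic ribosome genes (interval 1.87% to 12.8%). The interval of the synthetase genes overlapped those of both ribosomes.

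The enzymes were then arranged by amino acid. For 14 amino acids a cytosolic and a mitochondrial gene were set side by side. EPRS1, the fused glutamyl- and prolyl-tRNA synthetase, was set opposite EARS2 only. Phenylalanine and proline were kept apart from these pairs. SBNO1 marked both genes for 5 amino acids, namely glutamate (EPRS1 and EARS2), histidine (HARS1 and HARS2), isoleucine (IARS1 and IARS2), tryptophan (WARS1 and WARS2) and tyrosine (YARS1 and YARS2). It marked one gene for 7 amino acids. In 3 of these, leucine, arginine and threonine, the cytosolic gene was marked (LARS1, RARS1 and TARS1). In the other 4, cysteine, asparagine, serine and valine, it was the mitochondrial gene (CARS2, NARS2, SARS2 and VARS2). For alanine and methionine no gene had SBNO1. HARS1 and HARS2 share the same SBNO1 and TAF4 peaks, so histidine could only be marked at both genes. How many such pairs unrelated marking would give was not computed. TAF4 marked both genes for 10 of the 14 amino acids and at least one gene for the remaining 4. For phenylalanine the cytosolic enzyme consists of 2 subunits, of which FARSA had SBNO1 and TAF4 whereas FARSB had TAF4 alone, as had the mitochondrial FARS2. The mitochondrial prolyl-tRNA synthetase PARS2 had both proteins, as had EPRS1, which also serves proline.

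Peaks lay over the TSS in most cases. The 22 genes with SBNO1 carried 23 distinct SBNO1 peaks, and the 31 genes with TAF4 carried 34 distinct TAF4 peaks. Of these, 21 SBNO1 peaks (91.3%) and 31 TAF4 peaks (91.2%) covered a TSS of a synthetase gene, compared with 80.6% of all SBNO1 and 85.8% of all TAF4 promoter peaks. Their centres lay at a median of -118 bp for SBNO1 and -67 bp for TAF4 from the canonical TSS, the annotated main start of each gene, with negative values upstream. For all genes these medians were -117 bp and -102 bp. Each of the 23 SBNO1 peaks overlapped a TAF4 peak, compared with 83.8% of all SBNO1 promoter peaks. The 23 overlapping pairs shared between 196 and 898 bp, with a median of 342 bp, which was a median of 93.9% of the SBNO1 peak and 89.4% of the TAF4 peak. The TAF4 peak was the wider one in 15 pairs and the SBNO1 peak in 8. The SBNO1 centre was displaced from the TAF4 centre by between -301 and 169 bp along the gene, with a median of -11.0 bp.

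**Figure D2:**
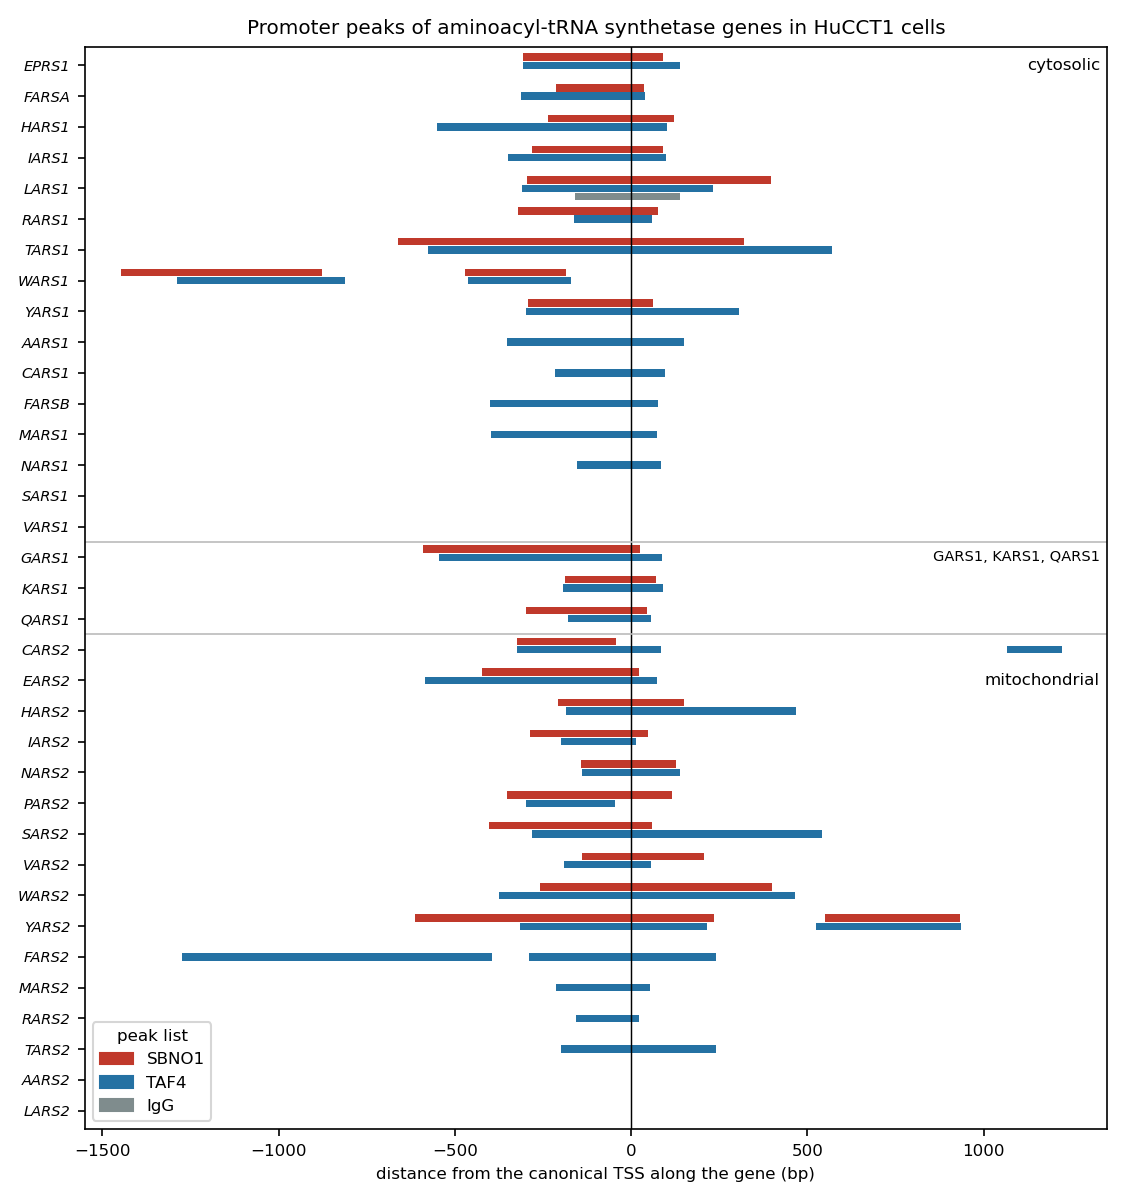
Peaks within 1 kb of a TSS of each synthetase gene, drawn along the gene from its canonical TSS (x axis, bp; negative is upstream), in red for SBNO1, blue for TAF4 and grey for IgG. Most peaks cover the canonical TSS; WARS1 carries 2 peaks of each protein upstream of it, and SARS1, VARS1, AARS2 and LARS2 have none.

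The widest SBNO1 promoter peak among the cytosolic enzymes lay at TARS1, the threonyl-tRNA synthetase (chromosome 5, plus strand). It reached from 33440303 to 33441285 (983 bp, score 966) and the TAF4 peak from 33440388 to 33441533 (1146 bp, score 1000). LARS1, the leucyl-tRNA synthetase (chromosome 5, minus strand), followed with an SBNO1 peak from 146182255 to 146182944 (690 bp, score 955) and a TAF4 peak from 146182419 to 146182959 (score 1000). Within both lay the IgG peak of this gene, from 146182512 to 146182808 (297 bp, score 692), so the SBNO1 and TAF4 peaks of LARS1 stand on a region that the control antibody also recovered. Without peaks overlapping IgG, SBNO1 marked 21 and TAF4 30 of the 35 genes. The score is a whole number given with each peak in the lists, and its highest value is 1000.

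WARS1, the tryptophanyl-tRNA synthetase (chromosome 14, minus strand), is known as an interferon-responsive gene and has 26 annotated protein-coding TSS. It carried 2 separate SBNO1 peaks, from 100375534 to 100375819 (score 1000) and from 100376224 to 100376794 (571 bp, score 959). TAF4 peaks overlapped each of them, from 100375519 to 100375811 and from 100376160 to 100376635, both with a score of 1000. The pairs of peaks covered 5 and 10 of the TSS, respectively, but not the canonical TSS at 100375347.

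Among the mitochondrial enzymes, YARS2 (tyrosyl-tRNA synthetase, chromosome 12, minus strand) had the widest SBNO1 peak, from 32755662 to 32756509 (848 bp, score 848), with TAF4 from 32755682 to 32756211 (score 799). A second pair lay inside the gene, with SBNO1 from 32754965 to 32755347 (score 875) at 550 bp and TAF4 from 32754962 to 32755372 (score 1000) at 525 bp from the TSS. At WARS2 (chromosome 1, minus strand), SBNO1 reached from 119140255 to 119140911 (657 bp) and TAF4 from 119140190 to 119141027 (838 bp), both with a score of 1000. At PARS2 (chromosome 1, minus strand), SBNO1 reached from 54764409 to 54764876 (468 bp, score 887) and covered the TSS. At PARS2 the TAF4 peak, from 54764569 to 54764820 (score 1000), began 46 bp upstream of it. CARS2 (chromosome 13, minus strand) showed the reverse, with the SBNO1 peak (110706161 to 110706440, score 849) 45 bp upstream of the TSS and the TAF4 peak (110706032 to 110706439, score 836) across it. A further TAF4 peak of CARS2, 157 bp wide, lay 746 bp from a TSS and was the most distant of all peaks counted.

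GARS1 (chromosome 7, plus strand) had the lowest SBNO1 score of all synthetase genes, 505, in a peak from 30594289 to 30594901 (613 bp). Its TAF4 peak (30594334 to 30594965) scored 885. At KARS1 (chromosome 16, minus strand) the SBNO1 peak, 75647594 to 75647853 (score 869), lay within the TAF4 peak, 75647576 to 75647859 (score 1000). QARS1 (chromosome 3, minus strand) had SBNO1 from 49104714 to 49105055 (score 781) and TAF4 from 49104701 to 49104936 (score 1000). The remaining genes with both proteins, EPRS1, FARSA, HARS1, HARS2, IARS1, RARS1, YARS1, EARS2, IARS2, NARS2, SARS2 and VARS2, had SBNO1 scores from 529 at SARS2 to 1000 at HARS1, HARS2 and YARS1.

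At 9 genes TAF4 was listed without SBNO1. AARS1 (alanine, chromosome 16) carried it from 70289358 to 70289858 with a score of 1000. CARS1 (cysteine, chromosome 11) carried it from 3057327 to 3057640 (score 670), and FARSB (phenylalanine, chromosome 2) from 222656018 to 222656492 (score 664). At MARS1 (methionine, chromosome 12) the peak reached from 57487671 to 57488141 (score 591) and at NARS1 (asparagine, chromosome 18) from 57621751 to 57621989 (score 975). These cytosolic genes were joined by 4 mitochondrial ones. MARS2 (chromosome 2) had a peak from 197705156 to 197705423 (score 950), RARS2 (chromosome 6) from 87589965 to 87590144 (score 1000) and TARS2 (chromosome 1) from 150487220 to 150487659 (score 1000). FARS2 (chromosome 6) had 2 peaks, from 5260240 to 5261116 and from 5261222 to 5261754, whose scores of 437 and 413 were the lowest of the TAF4 peaks. All 10 of these TAF4 peaks covered a TSS, and none overlapped an SBNO1 peak.

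The nearest SBNO1 peaks of these genes lay well outside the distance of 1 kb. The nearest SBNO1 peak lay 5.14 kb from a TSS of MARS1, 9.41 kb from TARS2, 38.0 kb from CARS1 and between 112 and 391 kb from the other 6. The peak nearest to MARS1 was a promoter peak of DDIT3, which encodes the stress-induced factor CHOP, and it was also listed for TAF4 and IgG. Whether SBNO1 signal below the calling threshold was present could not be seen from a peak list.

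Of the 4 genes without a promoter peak, VARS1 (valine, chromosome 6, minus strand) had both proteins further inside the gene. SBNO1 reached there from 31792792 to 31793106 (score 747) and TAF4 from 31792792 to 31793053 (score 1000), at 2393 and 2446 bp from the nearest coding TSS. The SBNO1 peak was centred in intron 3 of the canonical transcript. These were the peaks just outside the limit of 1 kb, and both counted when TSS of non-coding transcripts were included. SARS1 (serine, chromosome 1) had its nearest SBNO1 peak at 16.3 kb and its nearest TAF4 peak at 69.1 kb. For AARS2 (chromosome 6), both nearest peaks lay at 47.5 kb, at the promoter of NFKBIE. LARS2 (chromosome 3) had the nearest TAF4 peak at 221 kb, and its nearest SBNO1 peak, at 163 kb, lay in its own gene body from 45551458 to 45551879 (score 681) without TAF4. Beyond 1 kb of their own coding TSS, the bodies of the 35 genes held 3 SBNO1 and 3 TAF4 peaks in all. These lay in VARS1, in LARS2 (SBNO1), in WARS1 (TAF4, 100341260 to 100341546) and at the 5′ end of CARS2, where both peaks covered a TSS of ING1.

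Width and score of the peaks were compared with those of all genes. The median width of the SBNO1 peaks was 383 bp (range 249 to 983 bp), compared with 420 bp for all SBNO1 promoter peaks. For TAF4 it was 442 bp (range 157 to 1146 bp), compared with 418 bp. The median SBNO1 score was 875, compared with 850 for all promoter peaks, but only 4 of 23 peaks (17.4%) had the highest score of 1000, compared with 32.2% of all SBNO1 promoter peaks. In the mitochondrial and the cytosolic ribosome this share was 45.6% and 56.4%. The 4 peaks were those of HARS1 with HARS2, of WARS1, of YARS1 and of WARS2. TAF4 had the highest score in 16 of 34 peaks (47.1%), compared with 50.1% of all TAF4 promoter peaks. TAF4 peaks of genes that lacked SBNO1 had a median score of 810 and a median width of 456 bp, those of genes with SBNO1 a median score of 1000 and a median width of 428 bp. In all genes the medians were 890 and 349 bp without SBNO1, and 1000 and 452 bp with it. The 10 peaks without SBNO1 had widely spread scores, from 413 to 1000, and none of these differences was tested.

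**Figure D3:**
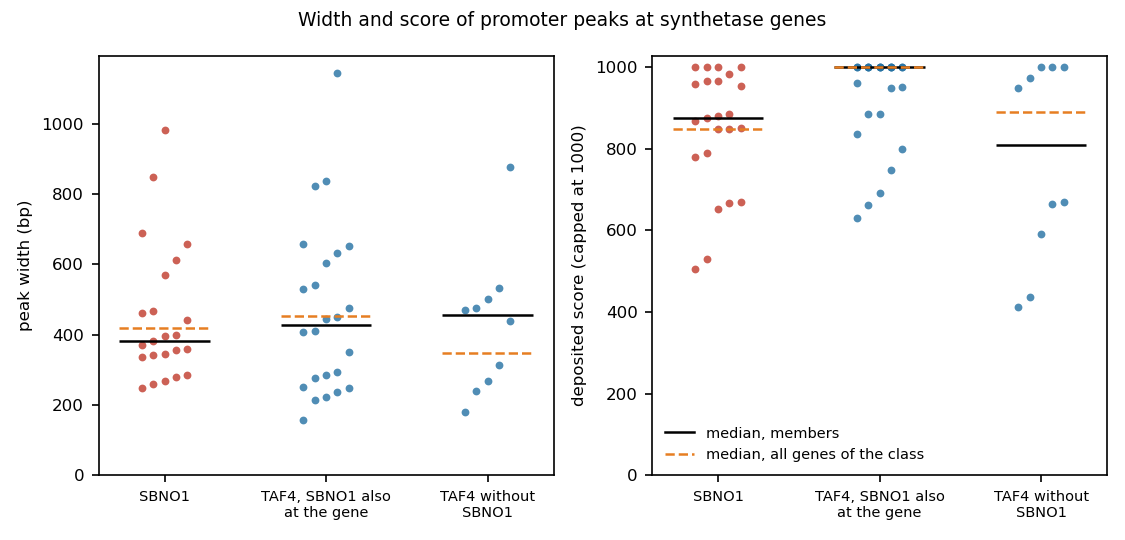
Width (bp, left) and deposited score (capped at 1000, right) of each promoter peak at synthetase genes, with 1 point per peak; black lines are medians of these peaks and dashed orange lines medians of all genes of the same class. TAF4 peaks of genes without SBNO1 range in score from 413 to 1000.

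Some synthetase genes share their promoter with a neighbour. A protein-coding gene started within 1 kb on the opposite strand and pointed away from 11 of the 35 genes, as it did from 2837 of all 19689 genes. SBNO1 marked 7 of these 11, compared with 52.7% of all such divergent genes, and TAF4 marked all 11, compared with 63.5%. Of the 24 genes without such a neighbour, SBNO1 marked 15, compared with 21.1% of all non-divergent genes, and TAF4 marked 20, compared with 26.6%. The SBNO1 count of divergent synthetase genes was thus near the background of such genes, and that of the other 24 lay above theirs. HARS1 and HARS2 (chromosome 5), the cytosolic and the mitochondrial histidyl-tRNA synthetase, start 37 bp apart in opposite directions. A single SBNO1 peak (140691248 to 140691605, 358 bp, score 1000) and a single TAF4 peak (140691270 to 140691922, 653 bp, score 952) covered TSS of both genes. They count for each gene, so HARS1 and HARS2 are not independent.

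SARS2, the mitochondrial seryl-tRNA synthetase (chromosome 19), faces MRPS12, a protein of the small mitochondrial ribosome subunit, at a distance of 181 bp. SBNO1 (38930704 to 38931166, score 529) and TAF4 (38930223 to 38931045, score 749) reached both genes, which makes this promoter one of the mitochondrial ribosome as well. The other pairs with both proteins were KARS1 with TERF2IP, a telomere protein, at 108 bp, YARS1 with S100PBP at 84 bp, WARS1 with WDR25 at 98 bp and EARS2 with UBFD1 at 371 bp. TAF4 alone was listed at AARS1 with DDX19B (60 bp), RARS2 with ORC3 (39 bp), a subunit of the origin recognition complex, FARS2 with LYRM4 (94 bp), a factor of mitochondrial iron-sulfur cluster assembly, and MARS1 with ARHGAP9 (716 bp). When each peak was given only to the gene of its nearest TSS, 5 genes (EARS2, HARS2, KARS1, SARS2 and YARS1) lost their SBNO1 peak to a gene with a nearer TSS, which left 17 genes with SBNO1. For TAF4, 28 genes were left. Both proteins remained at 16 genes, since HARS1 kept its SBNO1 peak but lost its TAF4 peak.

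The chromosome was considered because peak density differed between chromosomes. All 5 synthetase genes of chromosome 5, HARS1, HARS2, LARS1, RARS1 and TARS1, had SBNO1 and TAF4, but this chromosome was also marked most often of the 14 that carry a synthetase gene, in 40.4% of its genes by SBNO1 and in 43.9% by TAF4. Among these genes, HARS1 and HARS2 share the same peaks, and the peaks of LARS1 overlap an IgG peak. On chromosome 16, where SBNO1 marked 8.19% of genes and TAF4 18.9%, EARS2 and KARS1 had both proteins and AARS1 had TAF4. NARS1 lies on chromosome 18, with shares of 6.87% and 16.0%, and lacked SBNO1. The number of copies of these chromosomes in HuCCT1 cells is not measured by a peak list, and its part in the calls was not tested.

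The base composition of the promoters was near that of all genes. In windows from 250 bp before to 50 bp after the canonical TSS, the GC content of synthetase genes had a median of 62.3% (range 46.7% to 79.0%), compared with 63.7% for all genes. By quartiles of all genes, 5, 16, 12 and 2 synthetase genes lay in the lowest to the highest quartile. SBNO1 marked 15.1%, 34.3%, 33.2% and 20.0% of all genes in these quartiles, and TAF4 15.9%, 40.3%, 42.4% and 28.7%, so that most synthetase genes lay in the quartiles that were marked more often. Above the median GC content of all genes, SBNO1 marked 7 of 14 synthetase genes, compared with 26.6% of all genes there, and TAF4 marked 12, compared with 35.6%.

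The same windows were searched on both strands for exact matches to 10 short sequences, each searched on its own, so that matches to different sequences may overlap. The C/EBP-ATF response element, searched as TGATGNAA, was found mostly in cytosolic genes. It was present in 7 of the 16 cytosolic genes (43.8%, interval 19.8% to 70.1%), in 1 of the 16 mitochondrial genes (6.25%, interval 0.158% to 30.2%) and in GARS1, whereas 2.48% of all genes held it. The matches are shown with 30 bases of the GRCh38 reference each, read 5′ to 3′ along the gene, with the matched bases in capitals, because 7 of the 9 genes that carry them are cytosolic. The intervals of both compartments overlap, and the difference was not tested.
AARS1, chr16:70289675-70289704, minus strand: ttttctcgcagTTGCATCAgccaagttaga
CARS1, chr11:3057407-3057436, minus strand: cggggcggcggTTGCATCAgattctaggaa
IARS1, chr9:92293692-92293721, minus strand: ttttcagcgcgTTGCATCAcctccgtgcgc
MARS1, chr12:57488053-57488082, plus strand: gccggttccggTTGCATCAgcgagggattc
NARS1, chr18:57621804-57621833, minus strand: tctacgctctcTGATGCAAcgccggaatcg
TARS1, chr5:33440956-33440985, plus strand: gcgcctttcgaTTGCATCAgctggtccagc
YARS1, chr1:32817337-32817366, minus strand: ccgagcccagcTGATGCAAcctggctggac
YARS2, chr12:32756076-32756105, minus strand: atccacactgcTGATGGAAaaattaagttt
GARS1, chr7:30594834-30594863, plus strand: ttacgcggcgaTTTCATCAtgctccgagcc

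All 7 cytosolic genes held the same 8 bases, TGATGCAA or their reverse complement TTGCATCA, a form that 0.660% of all genes carry. This narrower form was counted after the matches had been seen. YARS2 and GARS1 held other forms of the element. Of the 9 matches, 6 began within 14 bp of the canonical TSS, that of GARS1 at -33 bp, and those of AARS1 and YARS2 at -187 and -197 bp. All 9 matches lay inside a TAF4 peak, 5 of them also inside an SBNO1 peak and none inside an IgG peak. Of all 35 synthetase genes, 88.6% had a TAF4 and 62.9% an SBNO1 promoter peak, and most of these peaks covered a TSS. The count of matches inside peaks therefore says little about the element. Over all 488 protein-coding genes with a match, 18.2% had a TAF4 promoter peak and 16.8% an SBNO1 promoter peak, below the 31.9% and 25.7% of all genes. Of the 130 genes with the narrower form, the 7 cytosolic synthetase genes included, 23.1% had TAF4 and 19.2% had SBNO1. Promoter GC content was not taken into account in these shares. Among cytosolic synthetase genes, 4 of the 5 with TAF4 alone (AARS1, CARS1, MARS1 and NARS1) and 3 of the 9 with both proteins (IARS1, TARS1 and YARS1) carried the element. These numbers are small, and the difference was not tested.

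**Figure D4:**
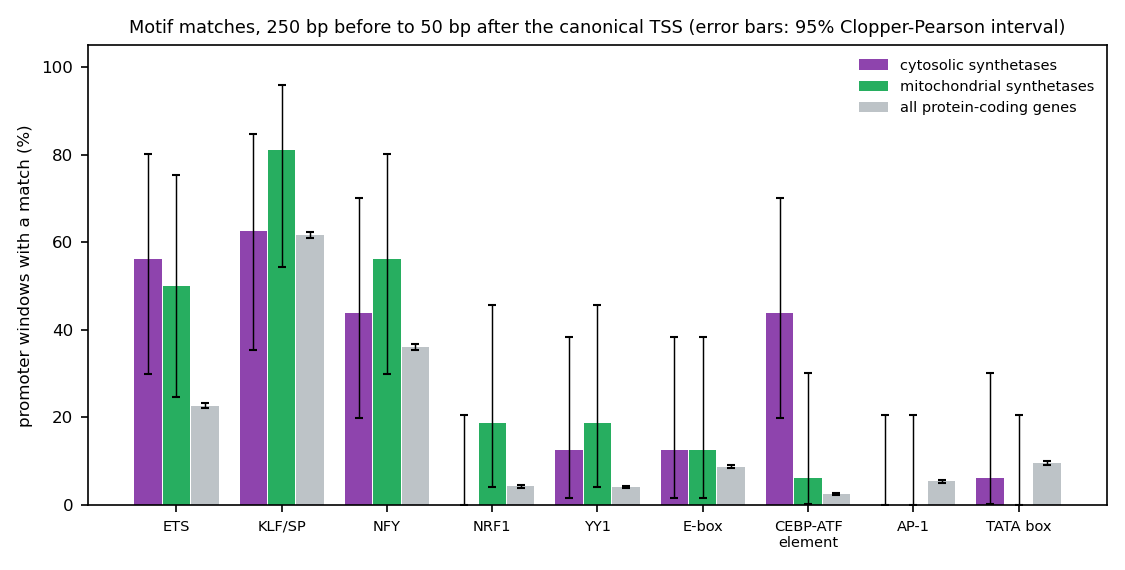
Share of promoter windows (%) with an exact match to each sequence (TCTCGCGA is not drawn), for cytosolic and mitochondrial synthetase genes and all protein-coding genes; error bars are 95% Clopper-Pearson intervals. The C/EBP-ATF element is found in 43.8% of cytosolic, 6.25% of mitochondrial and 2.48% of all windows.

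The ETS sequence CCGGAA was present in 20 of the 35 windows (57.1%, interval 39.4% to 73.7%), compared with 22.7% of all genes and 36.6% of all genes with SBNO1. It was about as frequent in genes without SBNO1 (8 of 13) as in genes with it (12 of 22). HARS1 and HARS2, with 3 matches each, count separately although their windows overlap, so they are not independent here either. The KLF/SP sequence GGGCGG was found in 26 windows (74.3%), compared with 61.6% of all genes, and CCAAT, bound by NFY, in 17 (48.6%), compared with 36.1%. The intervals of both include the share of all genes. AAGATGGC, bound by YY1, was found in 6 windows (17.1%, interval 6.56% to 33.6%), compared with 4.06% of all genes, 9.10% of genes with SBNO1 and 8.20% of genes with TAF4. The interval includes both of the latter shares. GCGCATGC is the core bound by NRF1, a regulator of nuclear genes for mitochondria. It was found in 3 mitochondrial genes, MARS2, VARS2 and YARS2 (18.8%, interval 4.05% to 45.6%), and in no cytosolic one (interval 0% to 20.6%). The share of all genes, 4.27%, lies in both intervals, and these overlap. The E-box CACGTG was found in 4 windows (11.4%), compared with 8.75% of all genes, and TCTCGCGA in 1 (WARS2, 2.86%), compared with 1.74%. TATAAA was found in 1 window (WARS1, 2.86%), compared with 9.65% of all genes, and the AP-1 sequence TGANTCA in none, compared with 5.45%. A match shows only that the letters are present.

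For 5 genes the sequence directly upstream of the start is given, without bases of any annotated exon, to show promoters of each class side by side. PARS2, SARS2 and KARS1 had both proteins, MARS2 had TAF4 alone and VARS1 had no promoter peak. Capitals mark matches to the ETS, KLF/SP, NFY, NRF1 and E-box sequences on either strand, from the GRCh38 reference, 5′ to 3′ along the synthetase gene.
PARS2, chr1:54764524-54764773, minus strand: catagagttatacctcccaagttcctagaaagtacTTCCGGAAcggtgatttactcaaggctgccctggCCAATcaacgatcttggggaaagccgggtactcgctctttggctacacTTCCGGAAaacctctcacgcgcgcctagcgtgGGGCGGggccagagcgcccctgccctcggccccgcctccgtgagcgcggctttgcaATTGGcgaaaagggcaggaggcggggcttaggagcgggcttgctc
SARS2, chr19:38930764-38930943, minus strand: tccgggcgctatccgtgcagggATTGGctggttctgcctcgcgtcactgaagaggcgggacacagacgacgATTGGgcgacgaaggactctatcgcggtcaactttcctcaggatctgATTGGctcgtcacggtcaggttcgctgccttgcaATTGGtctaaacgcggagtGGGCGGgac
KARS1, chr16:75647666-75647772, minus strand: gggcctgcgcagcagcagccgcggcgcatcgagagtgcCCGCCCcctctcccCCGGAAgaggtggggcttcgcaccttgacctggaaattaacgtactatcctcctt
MARS2, chr2:197705119-197705368, plus strand: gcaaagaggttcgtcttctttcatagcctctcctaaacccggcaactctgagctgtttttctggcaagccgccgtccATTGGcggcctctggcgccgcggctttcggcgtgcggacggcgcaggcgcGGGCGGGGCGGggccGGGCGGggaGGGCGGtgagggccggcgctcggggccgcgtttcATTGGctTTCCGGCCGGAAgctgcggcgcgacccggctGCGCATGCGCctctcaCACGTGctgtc
VARS1, chr6:31795753-31796002, minus strand: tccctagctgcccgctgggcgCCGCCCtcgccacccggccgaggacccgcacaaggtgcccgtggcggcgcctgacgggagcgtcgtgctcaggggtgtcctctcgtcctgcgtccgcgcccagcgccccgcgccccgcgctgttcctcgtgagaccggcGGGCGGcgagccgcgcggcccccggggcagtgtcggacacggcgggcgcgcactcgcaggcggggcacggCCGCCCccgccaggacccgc

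The PARS2 stretch lay wholly inside its SBNO1 peak and held 2 copies of the palindrome TTCCGGAA, each a match on both strands. The SARS2 stretch is the whole interval to MRPS12 that holds no exon. It held CCAAT 4 times, in the reverse orientation, and lay inside both peaks, as did the KARS1 stretch between KARS1 and TERF2IP. The MARS2 stretch, of which 213 bp lay in the TAF4 peak, held matches to all 5 sequences. The VARS1 stretch held GGGCGG 3 times and lay in no peak.

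Further genes of the same pathway were looked up from a list that was chosen by function, with earlier results of these data known. All 3 scaffold proteins of the multisynthetase complex, AIMP1, AIMP2 and EEF1E1, which hold a group of cytosolic synthetases together, had SBNO1 and TAF4. Of all genes, 22.6% had both. Peaks of AIMP1 also reached TBCK and those of AIMP2 also reached PMS2, so these peaks are not particular to the scaffold genes. The orientation of these neighbours is not given here. Of all divergent genes, 52.7% had SBNO1 and 63.5% had TAF4. At AIMP1 the SBNO1 peak had a score of 670. At AIMP2 (6009016 to 6009354 and 6009018 to 6009327, chromosome 7) and EEF1E1 (8102515 to 8102767 and 8102489 to 8102739, chromosome 6) both peaks had a score of 1000. TARS3, a paralog of the threonyl-tRNA synthetase, had no peak. Of the amidotransferase that makes mitochondrial glutaminyl-tRNA, GATB had both proteins, whereas QRSL1 and GATC had none, and the formyltransferase of the mitochondrial initiator tRNA, MTFMT, had none either.

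In the amino acid response, SBNO1 marked 4 of 8 genes, compared with 25.7% of all genes, and TAF4 marked 6, compared with 31.9%. ATF4 had SBNO1 (39519962 to 39520328, chromosome 22, score 1000) and TAF4 (39519942 to 39521093, score 981), and EIF2S1, the subunit of the initiation factor that GCN2 phosphorylates, had SBNO1 (score 988) and TAF4 (score 1000). TRIB3 carried 3 peaks of each protein. DDIT3 had both, together with an IgG peak (57520454 to 57520829, chromosome 12, score 570). Peaks of EIF2S1 also reached ATP6V1D, and those of DDIT3 also reached MBD6. ASNS, the asparagine synthetase, and SESN2 had TAF4 alone, each with a score of 1000. EIF2AK4, which encodes GCN2, and CHAC1 had no promoter peak of any library.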

How the data were processed

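The samples were 3 ChIP-seq libraries, 1 per antibody, each from precipitates pooled over several biological replicates. Per the methods, single-end reads were trimmed with ktrim and aligned to GRCh38.p14 with bowtie2, and peaks were called with normR. The submitters' processing notes name Bowtie2 2.5.4 and Genrich 0.6.1, so which caller made the lists is uncertain. For SBNO1 and TAF4, the study reported far fewer bound promoters within 1 kb of a TSS than the 5057 and 6280 genes found here. The shares given here can therefore not be set beside the counts of the study. The threshold, duplicate handling and the use of IgG as control are not given in the sources used here. The deposited lists hold intervals and a score, capped at 1000, whose scaling is not given. It was used only within a list. Depth is unknown, since the lists give no reads. Peaks lay within the GRCh38 chromosome lengths.

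TSS were 78567 sites of 19689 genes (GENCODE 44, protein-coding transcripts). Peaks were shared when overlapping by 1 bp. Shares have exact 95% Clopper-Pearson intervals (scipy 1.17.1, python 3.11.15). No test was run. The assignment and overlap functions were tested on simulated data. Members, lists and motifs were chosen with earlier results of these data known. All members are named, and some genes of the pathway list are not reported here. Coordinates are given for genes with IgG, with TAF4 alone, with the 3 widest SBNO1 peaks per compartment, and for GARS1, KARS1 and QARS1, and genes without a promoter peak are given with their nearest peaks. Those of HARS1, SARS2, CARS2, VARS1, LARS2 and the pathway genes, and the sequences printed, were chosen after their values were seen. Alternatives were other distances, TSS sets, assignments, score filters and windows.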

Additional observations from a re-analysis of the deposited data

How the results depend on the processing

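No paired analysis was possible because there was a single library for every antibody. Values were taken as moved when a count changed by over 1.5 times. Of 104 counts under an alternative, 88 stayed within this limit and 16 moved. Distances of 500 bp and 3 kb, 1 canonical TSS per gene, TSS of all transcripts, the peak centre, assignment to the nearest gene, removal of peaks overlapping IgG, an SBNO1 list of the length of the TAF4 list and a reciprocal overlap of 50% changed no count of members beyond it, with SBNO1 at 17 to 23 and TAF4 at 28 to 32 members. With peaks at or above the median score of their list, SBNO1 marked 13 members, SBNO1 with TAF4 11, SBNO1 6 mitochondrial ones, TAF4 9 cytosolic ones and IgG 0. With peaks at the score cap, SBNO1 marked 5 members (3 cytosolic, 2 mitochondrial), TAF4 15 (5 cytosolic, 8 mitochondrial), both together 2 and IgG 0. Fewer peaks remain under both filters by construction. The share of all genes was not computed under these score filters, so their counts of members have no background. Over the other distances, TSS sets, the peak centre and the nearest gene, SBNO1 marked 4288 to 5585 of all genes and TAF4 5360 to 6580. In windows of 1000 bp, CACGTG was found in 8 members (18.3% of all genes), TGANTCA in 2 (15.2%), TATAAA in 8 (23.1%) and TGATGNAA in 13 (7.40%). Unknown depth limits any statement on absent peaks.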
